A study of Homo sapiens with 17 samples.

Results

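The mRNAs described are those of 53 ribosome biogenesis factors, chosen by gene symbol from the proteins known to act in the nucleolus or in assembly of the ribosomal subunits. All 53 symbols were found among the 18869 genes measured, and all 53 were protein-coding and passed the filter used below, a mean TPM no lower than 5 in each of the immunoprecipitates (IPs). They fall into nucleolar chaperones (3 genes), core proteins of the box C/D snoRNPs (4) and of the box H/ACA snoRNPs (4), the small subunit processome (17), late 40S maturation (6), 60S assembly (17) and RNA polymerase I (2).

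Ribosome biogenesis starts in the nucleolus, where RNA polymerase I transcribes the ribosomal RNA precursor and small nucleolar RNPs guide its modification. The small subunit processome folds and cleaves the part that becomes the 40S subunit, and a separate set of GTPases, WD-repeat proteins and scaffold proteins builds the 60S subunit before both are exported. Growing cells in culture express this machinery at high levels, and its protein-coding mRNAs are themselves translated in the cytoplasm.

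The data came from Ribo-STAMP in HEK293T, a long-established human line of embryonic kidney origin. Stable lines carried a lentiviral, doxycycline-inducible construct, which in RPS2-STAMP encoded the cytidine deaminase APOBEC1 fused to the ribosomal protein RPS2 and in Control-STAMP encoded APOBEC1 alone, so that C-to-U edits mark RNA that was in contact with the tagged ribosome. Every group received 50 ng/ml doxycycline for 24 h and was crosslinked with 0.1% formaldehyde, and RNA was sequenced from the Input and from IPs of the nuclear (PABPN) and cytoplasmic (PABPC) poly(A) binding proteins. There were 17 samples. RPS2-STAMP had 9, which were 3 Input, 3 PABPN IP and 3 PABPC IP samples, and Control-STAMP had 8, which were 3, 3 and 2 in that order. According to the paper, the material was the cytoplasmic fraction of the cells.

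For each gene and fraction the authors deposited 1 normalized EPKM and 1 average TPM. EPKM is an amount of edits scaled by gene length and library size after subtraction of the control. It is not divided by the abundance of the mRNA, so it is not a rate per transcript. TPM is abundance per length. Values called with PABPC or with PABPN below are those of the PABPC IP or the PABPN IP. EPKM and TPM are both pooled over replicates. No SD, n or p-value can therefore accompany any value, no difference between fractions has a replicate check, and the number of edits behind an EPKM is unknown. Of 5 genes known to be expressed in HEK293T cells, all 5 were in the table and 4 had an Input TPM of at least 1, with PAX2 the exception. Of 8 markers of other cell types only COL3A1 was in the table, with an Input TPM of 0.088.

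As a set, the members lay near other genes in EPKM. Their median EPKM was 0.0360 in the Input, 0.0542 with PABPC and 0.0356 with PABPN. Over the 9607 protein-coding genes that passed the same filter, the medians were 0.0273, 0.0501 and 0.0334. The members were more abundant than that background in each fraction, with a median TPM of 36.0 in the Input, 52.1 with PABPC and 62.4 with PABPN, against 15.8, 28.9 and 38.4.

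An EPKM above 0 means that editing exceeded the control that was subtracted. In the Input 42 of the 53 members were above 0, against 78.1% of protein-coding genes. In the PABPC IP 45 were above 0, against 82.6%, and in the PABPN IP 45, against 72.9%. In all 3 fractions together 33 members were above 0, 14 were above 0 in both of a pair of fractions, 5 in a single fraction and 1 in none. Over protein-coding genes these shares were 50.5%, 34.7%, 12.7% and 2.07%, against 62.3% of members above 0 in all 3.

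**Figure D1:**
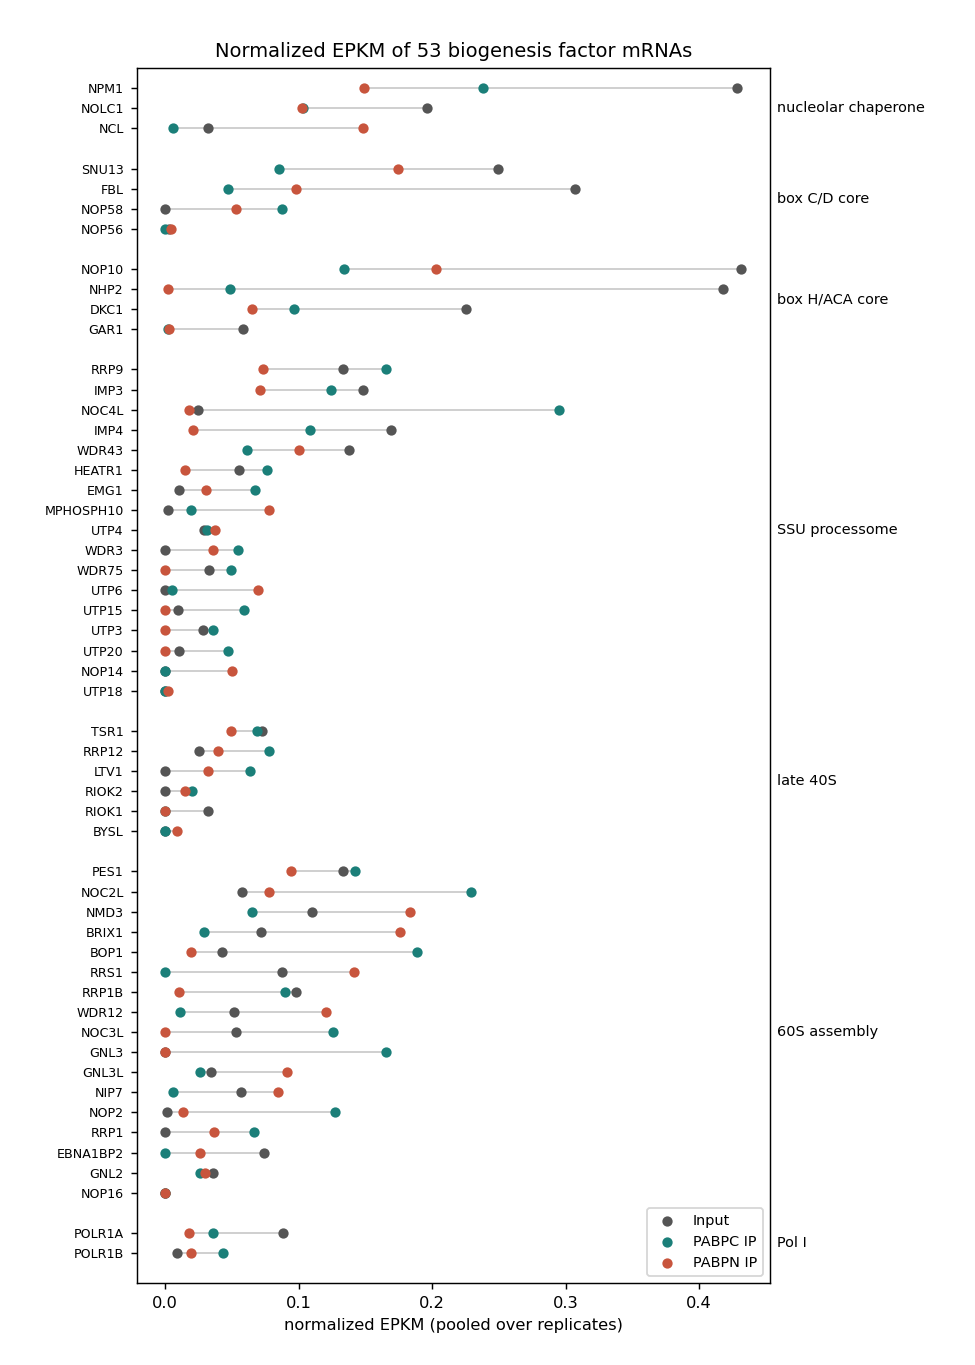
Normalized EPKM of each of the 53 members (x axis, edits scaled by length and library size, pooled over replicates) in the Input, PABPC IP and PABPN IP, with members ordered by role and, within a role, by mean EPKM over the fractions. The highest values are the Input values of NOP10, NPM1 and NHP2 (0.432, 0.428 and 0.418), and NOP16 is at 0 in every fraction.

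The nucleolar chaperones bind ribosomal proteins and precursor rRNA and are among the most abundant nucleolar proteins. NPM1, also called nucleophosmin (chr5:171387116-171411810 of hg38, plus strand), had an EPKM of 0.428 in the Input, 0.238 with PABPC and 0.149 with PABPN. Its TPM was 461, 812 and 384 in the same order. NPM1 thus stood high in all fractions, at or above 98.1%, 96.5% and 93.0% of protein-coding genes, but 49 annotated pseudogenes carry its name, so its reads could be split with near-identical copies.

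NCL, nucleolin, which binds precursor rRNA, showed another order (chr2:231453531-231483641, minus strand). Its EPKM was 0.0320 in the Input, 0.00548 with PABPC and 0.148 with PABPN, while its TPM was 84.3, 86.2 and 59.2. Its PABPN IP value was thus close to that of NPM1, whereas its PABPC IP value was among the lower ones of the set. NOLC1, which chaperones snoRNPs between the nucleolus and Cajal bodies, had an EPKM of 0.196 in the Input, 0.103 with PABPC and 0.102 with PABPN, so the IPs did not differ by 2-fold.

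Box C/D snoRNPs carry out 2′-O-methylation of rRNA, and FBL, fibrillarin, is their methyltransferase. FBL (chr19:39834458-39846379, minus strand) had an EPKM of 0.307 in the Input, 0.0471 with PABPC and 0.0980 with PABPN. SNU13, which binds the kink-turn of the snoRNA, had 0.25, 0.0852 and 0.174 in the same order. Both had their highest EPKM in the Input and their lowest in the PABPC IP, although both were most abundant in the PABPC IP, where the TPM of FBL was 549 and that of SNU13 was 330.

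NOP56 and NOP58 are paralogous scaffold proteins of the same particle, and their mRNAs had lower EPKM than FBL and SNU13 in the Input and with PABPN. NOP56 had an EPKM of 0.00248 in the Input, 0 (as listed) with PABPC and 0.00431 with PABPN, at TPM of 78.5, 181 and 284. NOP58 was listed at 0 in the Input and had 0.0874 with PABPC and 0.0530 with PABPN, at TPM of 37.8, 49.2 and 139. NOP56 was thus an abundant mRNA with almost no net editing in any fraction. Both genes contain snoRNA genes, as described below.

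Box H/ACA snoRNPs convert uridine to pseudouridine, with DKC1, dyskerin, as the enzyme. DKC1 had an EPKM of 0.225 in the Input, 0.0967 with PABPC and 0.0649 with PABPN. NOP10, the smallest core protein, had 0.432, 0.134 and 0.203 in the same order. NHP2, an RNA-binding paralogue of SNU13, had 0.418 and 0.0485, and 0.00219 in the PABPN IP, although its TPM there was 429. GAR1, which helps to release the modified RNA, had 0.0584, 0.00197 and 0.00303. All 4 had their highest EPKM in the Input, and all 4 were lower in both IPs than in the Input by 2-fold or more on the log2(EPKM + 0.01) scale, as were 1007 of 9607 protein-coding genes. With a pseudocount of 0.1 this held for NHP2 alone of the 4, and for 226 of 9607 protein-coding genes.

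The abundant nucleolar and snoRNP proteins were then set against the subunit assembly factors, the group of 40 members in the processome, late 40S and 60S roles. In the Input the median EPKM was 0.225 for the 11 nucleolar and snoRNP members and 0.0326 for the assembly factors, a difference of 0.193. Of the 11, 7 had an Input EPKM above that of every assembly factor, of which the highest was 0.169 in IMP4. The same 7 of 11 lay above the 90th percentile of protein-coding genes, as did 1 of 40 assembly factors.

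In the IPs the groups lay closer together. In the PABPC IP the medians were 0.0852 and 0.0567, a difference of 0.0285, and no nucleolar or snoRNP member exceeded the highest assembly factor, which had 0.295. Above the 90th percentile were 1 of the 11 and 5 of the 40 with PABPC, and 4 and 3 with PABPN. The difference of means in the PABPC IP was 0.00889. With PABPN the medians were 0.0980 and 0.0309, a difference of 0.0671, which was 0.0339 without NCL and NPM1. Members of a group are not replicates, and no test was run.

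The groups also differed in abundance. The median Input TPM was 98.3 for the nucleolar and snoRNP members and 29.2 for the assembly factors, with ranges of 30.2 to 461 and 6.81 to 128. Over the 53 members, TPM and EPKM had a Spearman correlation of 0.53 in the Input, 0.37 with PABPC and 0.10 with PABPN. Over 9601 protein-coding genes these were 0.53, 0.45 and 0.25. The part of abundance in the difference between the groups was not tested.

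**Figure D2:**
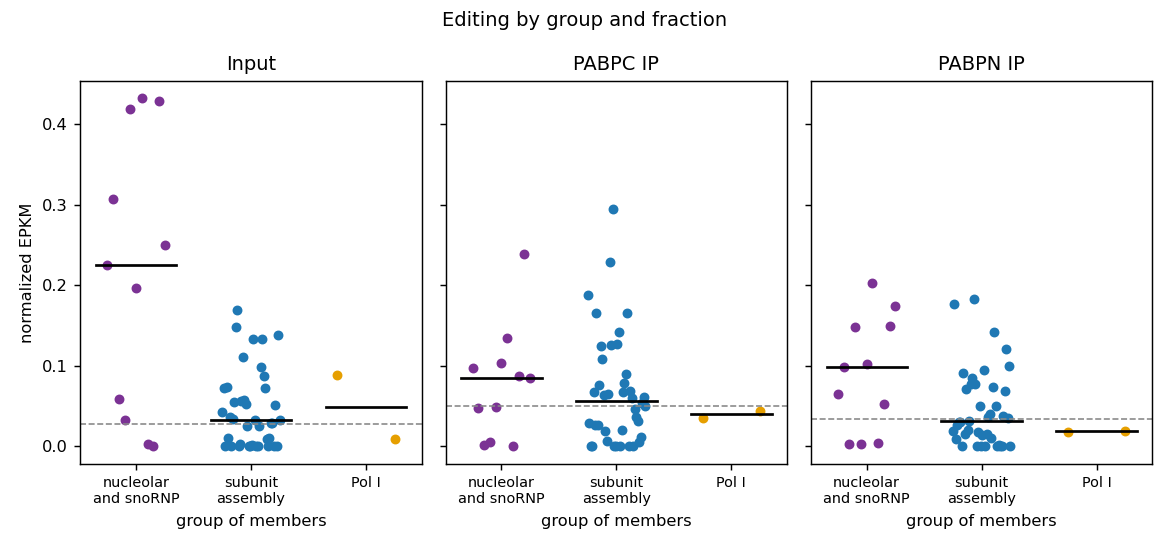
Normalized EPKM (y axis) of the 11 nucleolar and snoRNP members, 40 subunit assembly factors and 2 RNA polymerase I subunits in each fraction. Points are genes, solid lines are group medians and the dashed line is the median of 9607 protein-coding genes. In the Input, 7 of 11 nucleolar and snoRNP members lie above every assembly factor.

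The small subunit processome is the large complex that assembles on the nascent precursor rRNA around the U3 snoRNA. Its 17 members had a median EPKM of 0.0247 in the Input, 0.0542 with PABPC and 0.0302 with PABPN, and 9 of the 17 had their highest EPKM in the PABPC IP, as did 42.6% of protein-coding genes. NOC4L, a partner of NOP14, had the highest PABPC IP value of all 53 members. Its EPKM was 0.0247 in the Input, 0.295 with PABPC and 0.0175 with PABPN, at TPM of 49.3, 89.6 and 59.7.

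RRP9, a U3-specific WD-repeat protein, had an EPKM of 0.133 in the Input, 0.166 with PABPC and 0.0730 with PABPN. IMP3, which joins U3 to the precursor, had 0.148, 0.124 and 0.0712. The lowest of these 6 values was thus that of IMP3 with PABPN. At the other end, UTP18 had 0.00207 with PABPN and was at 0 both in the Input and with PABPC, at TPM of 46.2, 81.2 and 63.2. NOP14 was likewise at 0 in these fractions and had 0.0497 with PABPN, and other genes overlap 93.5% of its span.

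Late 40S factors accompany the nearly finished small subunit out of the nucleus. TSR1, a GTPase-like protein, had an EPKM of 0.0723 in the Input, 0.0684 with PABPC and 0.0495 with PABPN. RRP12, a HEAT-repeat export factor, had 0.0250, 0.0781 and 0.0397. LTV1, an export adaptor, was listed at 0 in the Input and had 0.0633 and 0.0316 in the PABPC IP and PABPN IP. This role had the lowest median EPKM in the Input of the 7, at 0.0125, since 3 of its 6 members were listed at 0 there. BYSL was above 0 in the PABPN IP alone, at 0.00844, and the kinase RIOK1 in the Input alone, at 0.0322.

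The 60S assembly factors varied in which IP was higher. PES1 forms a complex with BOP1 and WDR12 that is needed to process the large subunit rRNA, yet the 3 mRNAs differed in EPKM. PES1 had 0.133 in the Input, 0.142 with PABPC and 0.0945 with PABPN. WDR12 had 0.0512, 0.0113 and 0.120 in the same order. BOP1, named here after its values were seen, had 0.0424, 0.188 and 0.0192. Between the IPs the order was thus opposite for BOP1 and WDR12, and PES1 differed by under 2-fold.

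NOC2L and NOC3L form a further complex that escorts early 60S particles. NOC2L had an EPKM of 0.0574 in the Input, 0.229 with PABPC and 0.0774 with PABPN. NOC3L had 0.0530 in the Input and 0.126 with PABPC, and with PABPN it was listed at 0. Both were therefore higher in the PABPC IP. NMD3, the adaptor for nuclear export of the 60S subunit, had the opposite order, with 0.110, 0.0653 and 0.183.

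The nucleolar GTPases GNL3 and GNL3L are paralogues. GNL3, nucleostemin, reached an EPKM of 0.165 with PABPC and was listed at 0 in the other fractions, at TPM of 91.1, 144 and 167 in the Input, PABPC IP and PABPN IP. GNL3L had an EPKM of 0.0342, 0.0262 and 0.0909, highest in the PABPN IP. Another GTPase of this kind, GNL2, had 0.0360, 0.0263 and 0.0296, nearly level across the fractions.

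RRP1 and RRP1B, a pair of paralogues on chromosome 21, also differed. RRP1 was listed at 0 in the Input and had 0.0668 with PABPC and 0.0361 with PABPN. RRP1B had 0.0980, 0.0898 and 0.0106, and was the more abundant, with an Input TPM of 128 against 29.1. RRS1, which helps to bring the 5S RNP into the particle, had 0.0873 in the Input and 0.142 with PABPN, and with PABPC it was listed at 0.

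NOP16 was the only member at 0 in all fractions, at TPM of 18.6, 39.0 and 61.1. Its annotated span is covered to 100% by other genes, as are those of RRS1, RIOK2 and NIP7, the last 2 named after their values were seen. NIP7 was above 0 in every fraction. In all, other genes overlap at least 50% of the span of 9 members. Of these 9, 5 were at 0 in at least 1 fraction, against 15 of the other 44. Over protein-coding genes, overlapped or not, the share was 49.5%. According to the paper, stretches where genes overlap were taken out of the annotation used to count reads. That annotation came from an older GENCODE release and left readthrough transcripts out. Overlap here was counted over genes of GENCODE release 44 on either strand, with no filter for readthrough genes. It is thus not the overlap that the authors took out, and NOP16 still had TPM above 0. Whether edits in the stretches taken out were treated likewise is not known here. The part of overlap in the zeros was not tested.

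RNA polymerase I makes the rRNA precursor. Its largest subunit POLR1A had an EPKM of 0.0886 in the Input, 0.0355 with PABPC and 0.0178 with PABPN. The second largest, POLR1B, had 0.00899, 0.0435 and 0.0191. The subunits thus differed about which fraction was highest and were close to each other in both IPs.

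Next, editing was compared between the IPs. On the log2(EPKM + 0.01) scale, 15 of the 53 members were higher with PABPC by 2-fold or more, against 36.3% of protein-coding genes, and 11 were lower by as much, against 21.1%. Without a fold threshold 30 members were higher in the PABPC IP (56.6%), 21 were lower and 2 were equal, and the share of protein-coding genes that were higher was 56.4%. The members' counts were thus near those of other genes. With a pseudocount of 0.1 the counts were 5 and 3, and with a fold of 1.5 24 members were higher. No share of protein-coding genes is given for these settings, so these counts cannot be set against other genes.

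The 4 largest differences toward PABPC on this scale were in GNL3, NOC3L, NOC4L and UTP15. Of these only NOC4L was above 0 in both IPs, with a difference of 3.47. UTP15, a processome subunit that also affects rRNA transcription, had an EPKM of 0.0592 with PABPC and was listed at 0 with PABPN. The 4 largest differences toward PABPN were in RRS1, NCL, WDR12 and NOP14. NCL had a difference of -3.35 and WDR12 of -2.61, and RRS1 and NOP14 were listed at 0 in the PABPC IP. These sizes depend on the pseudocount. With 0.1 the differences were -1.23 for NCL and 1.75 for NOC4L, and UTP15 (0.67), WDR12 (-0.98) and NOP14 (-0.58) no longer differed by 2-fold.

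Of the 15 members higher by 2-fold in the PABPC IP, 8 were processome members and 6 were 60S factors. Of the 11 that were lower, 7 were 60S factors and 3 were processome members. The 60S factors were thus found in both directions, with 35.3% higher and 41.2% lower, against 36.3% and 21.1% of protein-coding genes. In each fraction 14 of their 17 mRNAs were above 0, against 78.1%, 82.6% and 72.9% in the Input, PABPC IP and PABPN IP. With a pseudocount of 0.1 only 5 and 3 of all 53 members were higher and lower by 2-fold. No late 40S member differed by 2-fold in either direction.

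**Figure D3:**
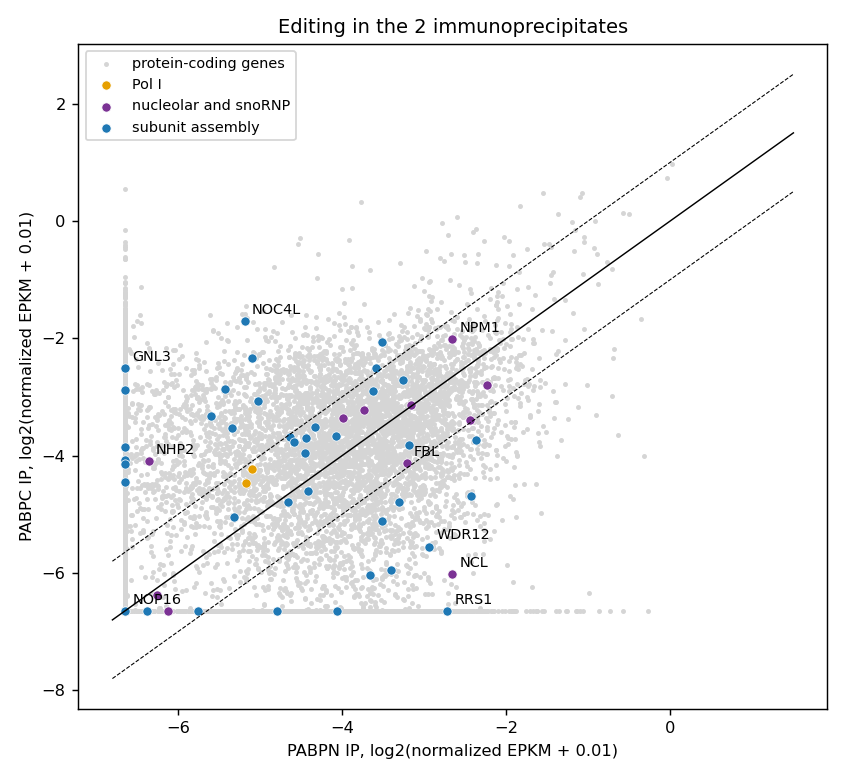
Editing in the PABPC IP (y axis) against the PABPN IP (x axis), both as log2(normalized EPKM + 0.01), for 9607 protein-coding genes (grey) and the 53 members (coloured by group). The solid line marks equal values and the dashed lines a 2-fold difference; 15 members lie on or above the upper dashed line and 11 on or below the lower.

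Both IPs were also compared with the Input, which the comparisons share. With PABPC, EPKM exceeded the Input by 2-fold or more for 17 members, against 35.1% of protein-coding genes, and was lower by as much for 15, against 19.5%. Of those 15, 7 were among the 11 nucleolar and snoRNP members and 7 among the 40 assembly factors. With PABPN, 14 members were higher than in the Input by 2-fold or more, against 28.4%, and 15 were lower, against 29.6%, of which 6 were nucleolar or snoRNP members. With a pseudocount of 0.1 these 4 counts were 5, 3, 0 and 4. The shares above are for a pseudocount of 0.01, so these counts cannot be set against other genes.

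The fraction with the highest EPKM differed by group. It was the Input for 8 of the 11 nucleolar and snoRNP members and for 8 of the 40 assembly factors. It was the PABPC IP for 1 of the 11 and 19 of the 40. Over protein-coding genes it was the Input for 26.6% and the PABPC IP for 42.6%.

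Abundance in the IPs was described by log2 ratios of TPM. Because the median ratio over protein-coding genes was 0.99 for the PABPC IP to the Input, 1.14 for the PABPN IP to the Input and -0.19 for the PABPC IP to the PABPN IP, ratios were centred on these medians, and a gene was called when it lay more than 0.5 from them. Relative to the Input, 23 of 53 members lay below this threshold in the PABPC IP, against 18.1% of protein-coding genes, and 3 lay above it, against 8.37%. The 3 above were NHP2, NOP10 and SNU13, all small snoRNP proteins. With a threshold of 1, 6 members lay below and 0 above. Without centring the split at 0.5 was 29 above and 1 below, so the low ratios hold relative to other genes and not in TPM itself. No share of protein-coding genes is given for these settings, so their counts cannot be set against other genes.

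In the PABPN IP 19 members lay below the threshold relative to the Input, against 21.6% of protein-coding genes, and 6 lay above it, against 24.5%. Of the 19, 8 were nucleolar or snoRNP members, out of 11. With a threshold of 1, 7 members lay below and 0 above, and without centring 37 lay above 0.5 and 1 below -0.5. Here too no share of protein-coding genes is given for these settings. The median centred ratio of the members was -0.45 for the PABPC IP and -0.26 for the PABPN IP, and without centring these were 0.54 and 0.88.

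Between the IPs, 14 members had a centred TPM ratio of the PABPC IP to the PABPN IP above 0.5, against 30.4% of protein-coding genes, and 14 had one below -0.5, against 31.5%. The median was -0.02, so the set was centred like other genes. The nucleolar and snoRNP members had a median of 0.89, with 7 of 11 above the threshold and 1 below it. The assembly factors had a median of -0.14, with 7 of 40 above and 11 below.

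The members at the ends of this ratio were named by rule. FBL had TPM of 549 with PABPC and 190 with PABPN and a centred log2 ratio of 1.72. NHP2 had TPM of 1107 and 429 and a ratio of 1.56, and SNU13 had 330 and 143 and a ratio of 1.39. All 3 encode snoRNP core proteins. At the low end, UTP20, a very large scaffold of the processome, had TPM of 8.80 and 47.5 and a ratio of -2.24. HEATR1, another large processome scaffold, had 48.7 and 238 and a ratio of -2.10, and POLR1A had 17.4 and 51.7 and a ratio of -1.38.

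**Figure D4:**
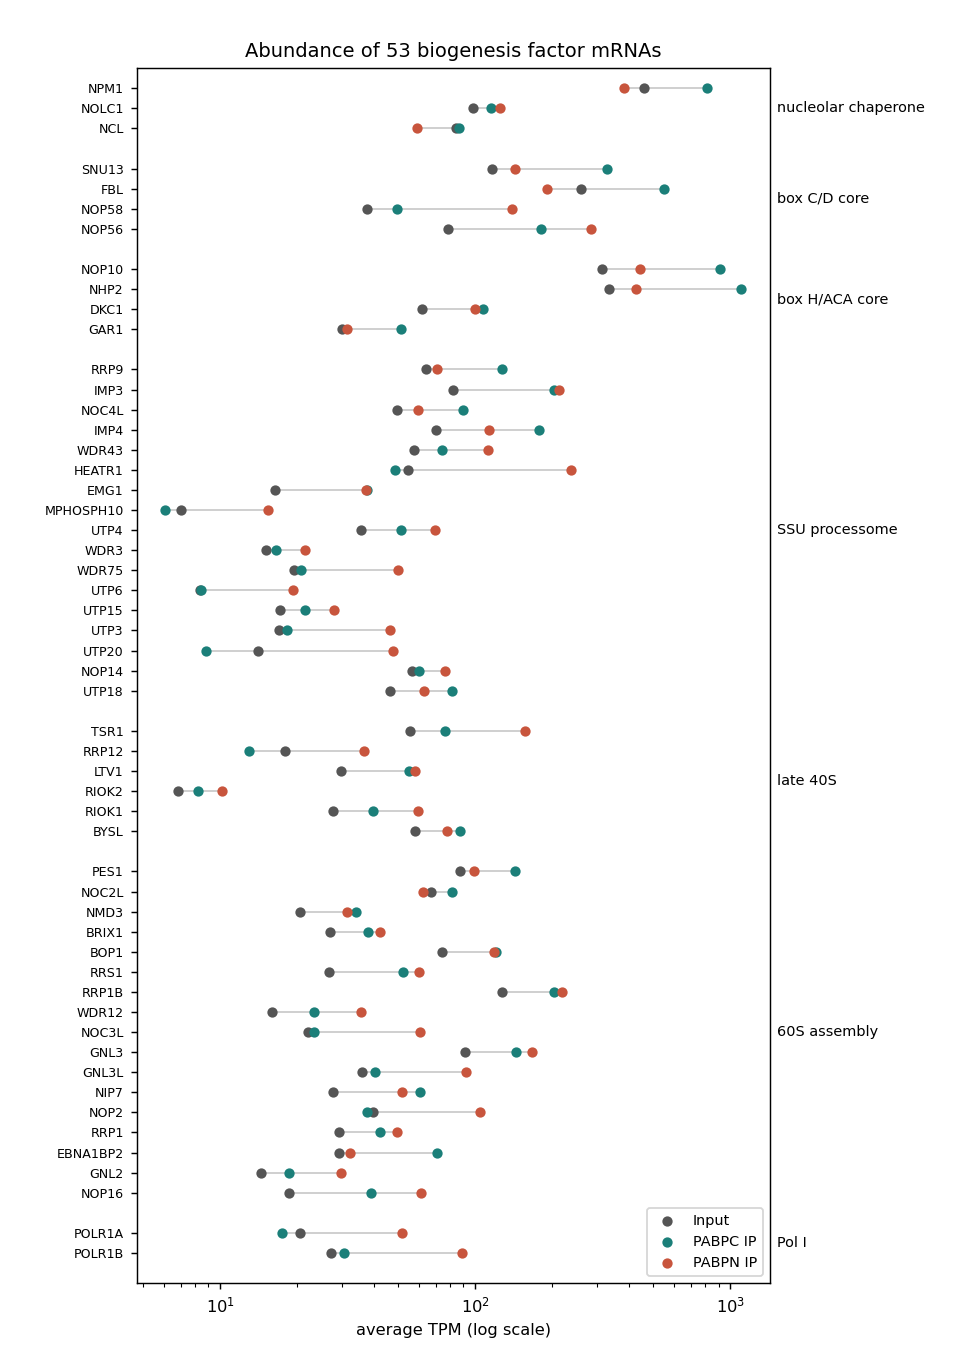
Average TPM (x axis, log scale) of each of the 53 members in the Input, PABPC IP and PABPN IP, ordered as in the plot of EPKM by member. FBL, NHP2, NOP10 and NPM1 are most abundant in the PABPC IP, whereas HEATR1, UTP20 and both RNA polymerase I subunits are most abundant in the PABPN IP.

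The members at these ends differed in coding length. In GENCODE release 44 the coding length was 8355 nucleotides for UTP20, 6432 for HEATR1 and 5160 for POLR1A, and 963 for FBL, 459 for NHP2 and 384 for SNU13. The low ratios of the PABPC IP to the Input followed length as well. Of the 26 members with a coding length above the members' median of 1656 nucleotides, 19 lay below -0.5 (73.1%), and of the other 27, 4 did (14.8%). Among protein-coding genes split at the same length the shares were 40.2% and 5.62%. Both shares were higher among the members than among other genes of that length class. For the PABPN IP to the Input the order was opposite, with 26.9% of the longer members below -0.5 and 44.4% of the others. Among protein-coding genes these shares were 8.61% and 28.9%. Whether length itself sets these ratios was not tested.

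The share of C in the canonical transcript, the base that APOBEC1 edits, ranged from 15.4% in MPHOSPH10 to 34.1% in NOC4L, with a median of 21.3%, against 23.7% for protein-coding genes.

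**Figure D5:**
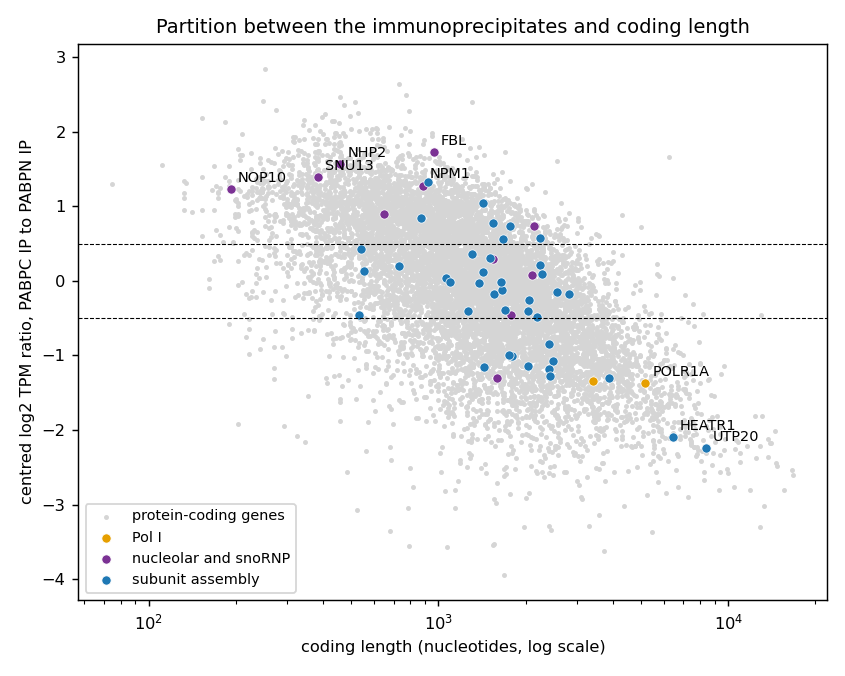
Centred log2 TPM ratio of the PABPC IP to the PABPN IP (y axis) against coding length in nucleotides (x axis, log scale) for protein-coding genes (grey) and the 53 members (coloured by group), with dashed lines at the thresholds of 0.5 and -0.5. Long coding sequences such as those of UTP20 and HEATR1 lie at the bottom, and FBL, NHP2 and SNU13, with shorter ones, are the highest members.

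Several members host snoRNAs within their genes. In GENCODE, 7 of the 53 members (13.2%) contained a snoRNA gene on the same strand, against 1.95% of 9605 protein-coding genes. They were NOP56 with 5, NOP58 with 4, NCL with 3, DKC1 with 2, WDR43 with 3, TSR1 with 2 and GNL3 with 6. Their median EPKM was 0.0320 in the Input, 0.0684 with PABPC and 0.0530 with PABPN, against 0.0392, 0.0490 and 0.0309 for the 46 other members. Their centred TPM ratio of the PABPC IP to the PABPN IP had a median of -0.40 and ranged from -1.31 to 0.73. TPM here sums exonic and intronic reads, so spliced and unspliced RNA cannot be told apart.

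A promoter feature that the choice of members did not use was found in some of them. Promoter windows from RefSeq (build GRCh38.p14, from 250 bases before to 50 bases after each start) were matched for 45 of the 53 members, and both strands were searched for the E-box CACGTG, which is its own reverse complement and is known as the core motif bound by MYC and MAX. It was present for 18 of the 45 members, against 13.3% of 7884 protein-coding genes past the TPM filter and 8.77% of all 27305 genes with a window. Counted by window, it was in 19 of 51 windows of members and in 7.26% of all 35116 windows. Among 77 other biogenesis factors with a window it was present for 25 (32.5%), and among 63 cytosolic ribosomal protein genes for 4 (6.35%).

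The motif began within 12 bases of the start for 8 of the 45 members, against 1.76% of the 7884 protein-coding genes, and so for 8 of the 18 with the motif, against 13.3% of 1049. These 8 are shown with 12 bases on each side. Capitals mark the E-box, and each line runs 5′ to 3′ on the strand of the gene.
FBL: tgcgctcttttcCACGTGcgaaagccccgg
NOP10: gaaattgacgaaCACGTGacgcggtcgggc
RRP9: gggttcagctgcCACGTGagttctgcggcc
UTP20: cttttttccgtcCACGTGacccactcaggc
GNL2: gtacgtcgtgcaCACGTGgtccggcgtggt
GNL3: ggcttcagttcaCACGTGgcgccagcggag
UTP18: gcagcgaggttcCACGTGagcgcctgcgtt
WDR43: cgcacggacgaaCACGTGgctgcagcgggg
In NOP10 the motif began 11 bases before the start, in UTP20 10 and in RRP9 5, and in FBL and GNL3 it began at base 7 of the transcript, in UTP18 at base 5, and in GNL2 and WDR43 at base 4. The windows are chr19:39846356-39846385 (minus strand) for FBL, chr15:34343130-34343159 (minus strand) for NOP10, chr3:51941892-51941921 (minus strand) for RRP9, chr12:101280083-101280112 (plus strand) for UTP20, chr1:37595917-37595946 (minus strand) for GNL2, chr3:52686026-52686055 (plus strand) for GNL3, chr17:51260538-51260567 (plus strand) for UTP18 and chr2:28894658-28894687 (plus strand) for WDR43.

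These members did not share a pattern of editing. FBL, NOP10 and WDR43 were highest in the Input, RRP9, UTP20 and GNL3 with PABPC and UTP18 with PABPN, and GNL2 was nearly level. A match to these letters is a description of the window and says nothing of binding. A start with C followed by 4 pyrimidines, as in the terminal oligopyrimidine mRNAs of ribosomal proteins, was present for 3 of 45 members (NPM1, FBL and EBNA1BP2, the last named after its values were seen), 7.83% of protein-coding genes and 47 of 63 cytosolic ribosomal protein genes.

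A list of other biogenesis factors, of which 85 were in the table and 83 passed the TPM filter, was described in the same way. Their centred log2 TPM ratio of the PABPC IP to the Input lay below -0.5 for 35 of 83 (42.2%) and above 0.5 for 1. Among the members 23 of 53 lay below and 3 above, and among protein-coding genes 18.1% and 8.37%. The low ratios to the Input were thus not particular to the members. Their median EPKM was 0.0406 in the Input, 0.0550 with PABPC and 0.0262 with PABPN in this list of other factors. On the log2(EPKM + 0.01) scale 36 of 83 (43.4%) were higher with PABPC by 2-fold or more, against 36.3% of protein-coding genes. Lower by as much were 18 (21.7%), against 21.1%. With a pseudocount of 0.1, for which no share of other genes is given, these counts were 14 and 3. The small subunit factors on this list had a low median in the PABPN IP, at 0.000692, since 15 of 29 (51.7%) were above 0 there. The share of protein-coding genes above 0 in that IP was 72.9%, and 13 of the 17 processome members were.

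The factors of this list that were among the 2 highest in EPKM in at least 1 fraction were NAT10, NPM3, TSR3, NIFK and RIOK3. NAT10, an RNA acetyltransferase that acts on 18S rRNA, had 0.591 in the Input and 0.399 with PABPC, and with PABPN it was listed at 0. NPM3, a relative of NPM1, had 0.560, 0.137 and 0.186 in the Input, PABPC IP and PABPN IP. TSR3, which modifies 18S rRNA, had 0.0944 in the Input and 0.307 with PABPC, and was also listed at 0 with PABPN. NIFK, a nucleolar protein that binds Ki-67, was above 0 in the PABPN IP alone, at 0.194. The kinase RIOK3 had 0.0471 in the Input and 0.187 with PABPN, and with PABPC it was listed at 0.

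The mRNAs of the ribosomal proteins, the parts that these factors assemble, differed from the members. The 79 cytosolic ribosomal protein mRNAs had a median EPKM of 0.440 in the Input, 0.437 with PABPC and 0.146 with PABPN, and 51 of 79 were higher with PABPC than with PABPN by 2-fold or more, with 7 lower by as much. Their centred TPM ratio of the PABPC IP to the PABPN IP was above 0.5 for 79 of 79, against 30.4% of protein-coding genes. Their median TPM was 501 in the Input, against 36.0 for the members. Translation factors, of which 41 passed the filter, had medians of 0.113, 0.0768 and 0.0874. Of the 41, 10 were higher with PABPC by 2-fold or more and 9 lower by as much. Over protein-coding genes, for comparison with both lists, 36.3% were higher and 21.1% lower. With a pseudocount of 0.1 the counts were 6 and 4 for translation factors and 42 and 3 for ribosomal proteins. With a fold of 1.5, 17 translation factors were lower, and with a fold of 3 their counts were 6 and 5. The difference between these lists was not tested.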

How the data were processed

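Reads were aligned by the authors to hg38 with STAR and counted with featureCounts 2.0.2 per the submitters' processing notes and the methods. The deposited normalized EPKM values are a background-subtracted editing signal, made by the authors from C-to-U edits above a confidence score by subtracting the control condition. The deposited TPM values are the authors' averages per fraction, the sum of exonic and intronic TPM under an annotation without overlapping and readthrough regions. Values are pooled, so the permutation tests and limma fits set for values per replicate could not be run, and the differences set for pooled values were used. The methods give the depth of these libraries as a minimum and an average, not by sample. Which samples entered each value is not stated in the sources used here.

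Genes with TPM of at least 5 in both IPs were used. EPKM was compared as log2(EPKM + 0.01), called at 2-fold, and log2 TPM ratios were centred on their median over 9607 protein-coding genes and called past 0.5. Members and lists were chosen with earlier results of these data known. Named were all nucleolar and snoRNP members, in each other role the 3 highest and 2 lowest by mean EPKM, the 4 largest rises and 4 largest falls between IPs, 3 members at each end of the TPM ratio, members at 0 throughout, paralogue pairs, and the other biogenesis factors with the 2 highest EPKM in each fraction. Gene models were those of GENCODE release 44 (hg38), matched by identifier for 18806 genes, and promoter windows those of RefSeq on GRCh38.p14. The call rules were tested on simulated data. Alternatives changed filters, summaries, pseudocounts, folds, thresholds and centring. Computation used SciPy 1.17.1, pandas 2.3.3 and NumPy 2.4.6 under Python 3.11.15, and plots used matplotlib 3.10.9.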

Additional observations from a re-analysis of the deposited data

Results flagged for a closer look

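The snoRNA genes inside members have EPKM of their own that no comparison above used, and any value above 0 exceeds the subtracted control. Of 25 such genes, 21 had a value, and 3 were above 0 in the Input, 2 with PABPC and 8 with PABPN (14.3%, 9.52% and 38.1%). Over all 226 snoRNA genes of the table the shares were 23.0%, 21.2% and 46.5%, so those inside members did not stand out. In NOP56, SNORD56 had 0.292 and SNORD57 had 0.175 in the PABPN IP, and both were listed at 0 in the other fractions, whereas SNORD110 had 0.148 with PABPC and 0.130 with PABPN, and the host mRNA had 0.00431 in the PABPN IP. In WDR43, SNORD53 had 0.316 in the Input and 0.274 in the PABPN IP. These snoRNAs were named after their values were seen. Whether these edits lay in the snoRNA or in the host pre-mRNA was not tested.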

How the results depend on the processing

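No paired analysis was possible because each column pools its replicates, and for the same reason no replicate could be left out. A count or EPKM within 1.5 times its reported value was counted as the same, and so was a log2 ratio that moved by no more than the same factor. By this rule 119 of 171 recomputed values were the same, 48 moved and 4 reversed. Of the 119, 15 came from TPM rescaled and then centred, where centring cancels the rescaling. A further 6 came from a TPM filter of 1 and 17 from no TPM filter. All 53 members already passed the filter of 5, so neither setting could change a member's value. The 119 is therefore not a measure of how stable the results are. Causes were not tested unless the setting itself shows them.

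Without centring, the members' median log2 TPM ratio to the Input reversed to 0.54 with PABPC and 0.88 with PABPN. With TPM rescaled to the same sum in each fraction and not centred, which was chosen after seeing the data, these were 0.32 and 0.68. Counts above and below the threshold were then 29 and 1 with PABPC and 37 and 1 with PABPN without centring, and 20 and 2, and 31 and 2, after rescaling. With a threshold of 1 they were 0 and 6 with PABPC and 0 and 7 with PABPN, and 7 members lay above it for the PABPC IP to the PABPN IP. These counts have no share of protein-coding genes beside them and cannot be set against other genes.

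With a pseudocount of 0.1, members at least 2-fold higher and lower numbered 5 and 3 with PABPC against PABPN, 5 and 3 with PABPC against the Input, and 0 and 4 with PABPN against the Input. With PABPC against PABPN they numbered 14 and 3 for other biogenesis factors and 6 and 4 for translation factors, and 3 ribosomal proteins were lower. With a pseudocount of 0.001 every such count was the same by the rule above, with 17 members higher and 16 lower with PABPC than with PABPN, while the differences grew, to -4.53 for NCL. With a fold of 1.5, 24 members were higher and 17 translation factors were lower, and with a fold of 3, 6 and 5 translation factors were higher and lower. All 53 members passed with no TPM filter, so the filter changed nothing at 0, and 44 passed at 20, where the Input median was 0.0542. Means in place of medians were 0.0806 in the Input and 0.0544 in the PABPN IP. The difference between nucleolar and snoRNP members and assembly factors stayed above 0 in every fraction under the alternatives run, at 0.00889 for means with PABPC and 0.0339 with PABPN without NCL and NPM1.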
